A study of Mus musculus with 13 samples.

Results

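The 6 chains of type IV collagen and 4 proteins that bind or link that network were followed in the lungs of mice kept in normoxia or hyperoxia. These 10 genes (Col4a1 to Col4a6, Nid1, Nid2, Hspg2 and Sparc) were taken by symbol from a count table of 32544 gene symbols and were chosen on the rise of Col4a1 in hyperoxia. Their differences between the groups are therefore given as a description, without a p-value. Where a member is said to be called, this is its place in the fit of all genes, given as part of that description and not as support for the choice. Wild-type (WT) C57BL/6J male mice, bought at 7 weeks of age, breathed 21% oxygen (normoxia, 7 libraries) or 80% oxygen (hyperoxia, 6 libraries) for 5 days. Perfused whole lungs were frozen and sequenced by Quant-seq, which reads the 3′ ends of polyadenylated transcripts. No transgene, drug or sorted cell type was involved, and the sources do not state whether each library came from its own mouse, so the spread between libraries may be partly technical.

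Type IV collagen is the sheet-forming collagen of basement membranes, the thin matrix layers under epithelium and around capillaries. Its chains assemble as trimers of fixed make-up. The α1 and α2 chains form the trimer found in nearly all basement membranes, whereas the α3, α4 and α5 chains form a trimer restricted to a few sites, among them the alveolar and glomerular basement membranes, and the α5 and α6 chains occur together in others. In the alveolus, capillary endothelium and type 1 epithelium share a fused basement membrane across which gas diffuses. Nidogens tie laminin to collagen IV, perlecan is the heparan sulfate proteoglycan of the same layer, and SPARC is a collagen-binding glycoprotein that acts during collagen IV assembly.

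Each pair of chain genes lies head to head, and the stretches where the members of a pair begin are shown because the main contrast below is between Col4a1/Col4a2 and Col4a3/Col4a4. In the GRCm38 annotation, Col4a1 (minus strand) and Col4a2 (plus strand) on chromosome 8 overlap by 22 bases at their first exons. Col4a4 (minus strand) and Col4a3 (plus strand) on chromosome 1 leave 71 bases between their starts, while Col4a6 and Col4a5 on the X chromosome lie 1308 bases apart. Both stretches are given on the plus strand from RefSeq promoter windows of GRCm38.p6, and capitals mark the GC box GGGCGG.
Col4a2 and Col4a1, shared start, chr8:11312805-11312826: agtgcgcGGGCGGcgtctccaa
Col4a4 and Col4a3, between the starts, chr1:82586850-82586920: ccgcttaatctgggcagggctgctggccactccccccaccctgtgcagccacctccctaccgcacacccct
A promoter window of 300 bases (250 before and 50 after the start) was found for 8 of the 10 genes, all but Col4a3 and Nid2. On either strand GGGCGG stood in 6 of these 8 windows and in 35.7% of all 32851 windows, and CCAAT stood in 4 of the 8 and in 37.4% of all windows. No match of one motif overlapped a match of the other in the 8 windows. The windows of Col4a1 and Col4a2, which share 78 bases, each held both motifs, as did those of Nid1 and Col4a5, and the windows of Col4a4 and Sparc held neither. GC content was 74.0% for Col4a1 and 73.7% for Col4a2, against 63.3% for Col4a4 and a median of 52.7% over all windows. These matches describe letters only, since no binding was measured.

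The depth of the libraries was similar between the groups, and 1 hyperoxic library stood apart. Total counts ran from 1607111 to 3387736 in normoxia and from 2029006 to 4540288 in hyperoxia, so that 3 counts, taken as the floor, correspond to at most 1.84 CPM (read counts scaled for library size). Hyperoxia replicate 1 had a mean correlation of 0.779 with the other libraries, whereas the other 12 had between 0.886 and 0.919. Values without it are given below for each member tested. The lung markers Sftpc, Scgb1a1, Ager and Pecam1 were found in all 13 libraries, and the liver transcript Alb stayed at or under 2.43 CPM. edgeR's quasi-likelihood test over 12496 genes called 22.6% of them at an adjusted p under 0.05, with 11.8% higher and 10.8% lower in hyperoxia. The groups did not overlap for 10.8% of these genes, and over all of them the log2 fold change had a median of -0.03.

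Of the 10 members, 9 passed the filter on low counts, and 4 of them (Col4a1, Col4a2, Nid1 and Sparc) were called higher in hyperoxia, beside the 11.8% of all genes called higher. The test called 0 lower, also at an unadjusted p under 0.05 and with DESeq2, limma-voom and limma on the deposited values, and 5 were not called. The 2 groups did not overlap for 3 members, Col4a1, Nid1 and Sparc, beside the 10.8% given above. The median log2 fold change of the 9 was 0.06. Because Col4a1 chose the set in this same contrast, nothing is read from these shares.

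Col4a1, on chromosome 8 (11198423 to 11312826, minus strand), was the most abundant of the chains in every library. Its lowest, median and highest normoxic values were 654, 757 and 939.9 CPM, and its hyperoxic values were 2913, 3596 and 4514 CPM. Every hyperoxic library was above every normoxic library by a wide gap. The group means were 779 ± 113 CPM (SD, n = 7) and 3734 ± 564 CPM (SD, n = 6), a log2 fold change of 2.26 with a standard error (SE) of 0.15, or 4.80-fold. Hyperoxia replicate 1 had 3593 CPM, close to the hyperoxic median, and the log2 fold change without it was 2.29. Relative spread was alike in the 2 groups, with a coefficient of variation of 14.5% in normoxia and 15.1% in hyperoxia. The 3′ end of Col4a1 overlaps the antisense gene Gm15418, whose symbol was not found in the count table. No source says that strand was used in the counting, so whether reads of the 2 genes were told apart is not known.

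Col4a2, the partner on the same chromosome (11312805 to 11449287, plus strand), was also higher but far less even. Its normoxic values ran from 85.9 CPM through a median of 150.1 to 174 CPM. Hyperoxia replicates 1 to 6 had 153, 785, 315, 617, 356 and 688 CPM. Replicate 1 was inside the normoxic range, and the other 5 libraries were above all of it. Means were 133 ± 37.7 CPM (SD, n = 7) and 486 ± 247 CPM (SD, n = 6), with a log2 fold change of 1.87 (SE 0.32), or 2.07 without replicate 1. The coefficient of variation was 28.4% in normoxia and 50.8% in hyperoxia, the latter more than for any other collagen chain except Col4a6.

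**Figure D1:**
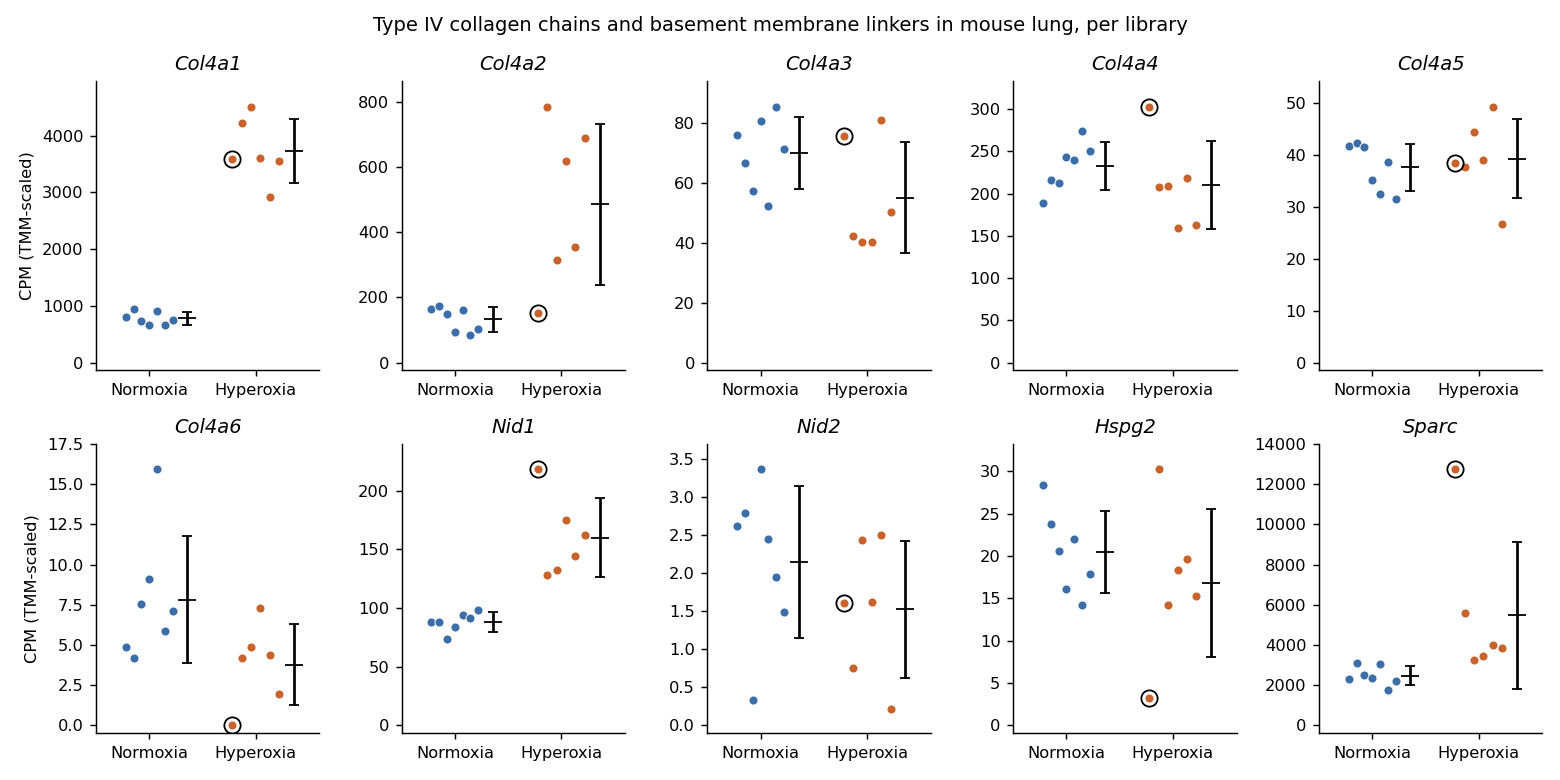
CPM (TMM-scaled, linear axes) of the 10 genes in each library, with points for 7 normoxic (blue) and 6 hyperoxic (orange) libraries, black bars for mean ± SD, and a ring around hyperoxia replicate 1. All 6 hyperoxic points lie above the normoxic points for Col4a1, Nid1 and Sparc; the ringed library is inside the normoxic range for Col4a2, highest for Sparc at 12742 CPM and lowest for Hspg2 at 3.22 CPM.

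The alveolar chains did not share that difference. Col4a3, whose chain carries the Goodpasture autoantigen, lies on chromosome 1 (82586921 to 82722059, plus strand). It had 52.1, 71.1 and 85.3 CPM as its lowest, median and highest normoxic values, and 40.1, 46.2 and 81.0 CPM in hyperoxia. The groups overlapped: 4 hyperoxic libraries were under all normoxic ones, and replicates 1 and 5 were among the normoxic values. The log2 fold change of -0.35 (SE 0.20) was not called, and it was -0.45 without replicate 1. The end of Col4a3 overlaps C430014B12Rik on the other strand, a gene whose symbol was also not found in the count table. The counts of Col4a3 therefore carry the same doubt about strand as those of Col4a1.

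Col4a4, on the same chromosome (82448423 to 82586849, minus strand), was more abundant by tag count than Col4a3 in all 13 libraries. Its normoxic values were 189, 240.2 and 275 CPM (lowest, median, highest) and its hyperoxic values 159.7, 208 and 303 CPM. The highest hyperoxic value was that of replicate 1, and it lay above all normoxic libraries, while 2 hyperoxic libraries lay below them all. Means of 232 ± 28.4 CPM (SD, n = 7) and 210.2 ± 51.9 CPM (SD, n = 6) gave a log2 fold change of -0.14 (SE 0.16), not called, or -0.26 without replicate 1.

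The remaining chains, encoded on the X chromosome, were low. Col4a5 (141475385 to 141689234, plus strand), which encodes the partner of the α3 and α4 chains and is the gene of X-linked Alport syndrome, had 31.5 to 42.3 CPM in normoxia and 26.7 to 49.4 CPM in hyperoxia. The hyperoxic range enclosed the normoxic one, and the log2 fold change was 0.06 (SE 0.16), or 0.08 without replicate 1. Col4a6 (141165403 to 141474076, minus strand) had 12 to 27 counts per normoxic library and 0 to 27 per hyperoxic library, or 4.19 to 15.9 and 0 to 7.27 CPM. Its log2 fold change of -0.97 (SE 0.47) was not called, with a coefficient of variation of 50.7% in normoxia and 66.5% in hyperoxia. The library at 0 counts was hyperoxia replicate 1, where the floor of 3 counts is 1.61 CPM, and without it the value was -0.73.

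The pair contrast was taken in each library as the mean log2 CPM of Col4a1 and Col4a2 minus that of Col4a3 and Col4a4. Normoxic libraries ran from 0.63 through a median of 1.58 to 1.76, and hyperoxic libraries from 2.29 through 3.90 to 4.27. The lowest hyperoxic value, of replicate 1, was above the highest normoxic value, so the groups did not overlap. The means were 1.31 ± 0.47 (SD, n = 7) and 3.58 ± 0.81 (SD, n = 6), a difference of 2.27 on the log2 scale, and 2.53 without replicate 1. Most of that difference came from the first pair, whose 2 genes had log2 fold changes of 2.26 and 1.87 against -0.35 and -0.14 for the second.

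The library names carry letters that fall into 2 sets, B to M (5 normoxic and 3 hyperoxic libraries) and O to S (2 and 3), and their meaning is not given in the sources used here. Within B to M the pair contrast differed between the groups by 1.91, and within O to S by 2.90, again on the log2 scale. Col4a1 differed by 2.35 and 2.25 in the 2 sets. Col4a2 differed by 1.21 and 2.50, the lower figure in the set that holds hyperoxia replicate 1. Col4a3 differed by -0.37 and -0.51, and Col4a4 by 0.11 and -0.55, so that Col4a4 changed sign between the sets. Hspg2 changed sign too, with -0.89 and 0.14, and Col4a6 differed by -1.64 and -0.59. Nid1 differed by 0.86 and 0.75, Sparc by 1.22 and 0.92, and Col4a5 by 0.06 and 0.09.

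**Figure D2:**
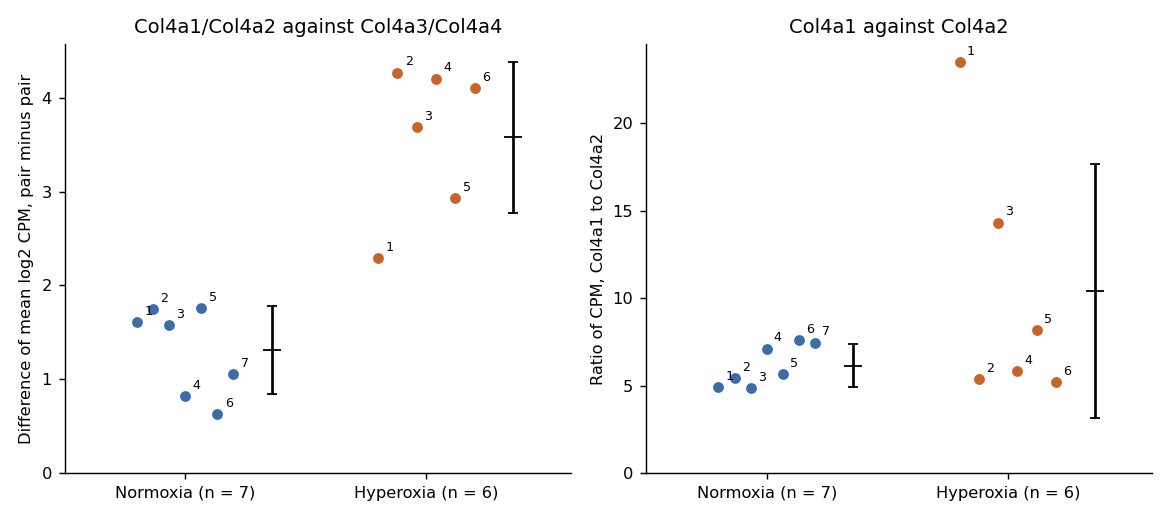
Left, mean log2 CPM of Col4a1 and Col4a2 minus that of Col4a3 and Col4a4 in each library; right, ratio of Col4a1 to Col4a2 CPM; points are libraries numbered by replicate, and black bars are mean ± SD. The pair contrast is between 0.63 and 1.76 in normoxia and between 2.29 and 4.27 in hyperoxia, while the Col4a1 to Col4a2 ratio overlaps between the groups and reaches 23.5 in hyperoxia replicate 1.

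Within each pair, the partners were also compared with each other. These ratios are of 3′ tag counts without a length term, and since capture of an end may differ between genes, only their change between groups is of use. The Col4a1 to Col4a2 ratio was 6.14 ± 1.21 (SD, n = 7) in normoxia, with a range of 4.84 to 7.61. In hyperoxia it was 10.4 ± 7.29 (SD, n = 6), with a range of 5.17 to 23.5. Replicates 1 and 3 had 23.5 and 14.3, replicate 5 had 8.19, and the other 3 were inside the normoxic range. Without replicate 1 the mean was 7.78 ± 3.85. The Col4a4 to Col4a3 ratio was 3.40 ± 0.66 in normoxia and 4.01 ± 0.94 in hyperoxia, with overlapping ranges of 2.49 to 4.61 and 2.70 to 5.18.

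The sum of the 6 chains was larger in hyperoxia, and Col4a1 took more of it. Normoxic libraries summed to 1259 ± 126 CPM (SD, n = 7), and hyperoxic libraries to 4528 ± 620 CPM (SD, n = 6). Col4a1 made up 57.1% to 65.1% of it in normoxic libraries and 79.3% to 88.0% in hyperoxic ones. The share of Col4a2 was 10.4% ± 2.28 in normoxia and 10.6% ± 4.88 in hyperoxia, and was lowest in hyperoxia replicates 1 (3.67%) and 3 (6.15%). Col4a3 and Col4a4 together went from 24.3% ± 4.62 to 6.03% ± 2.08, and Col4a5 from 3.01% ± 0.43 to 0.890% ± 0.263. A share falls when the total grows, and the levels of these 3 genes were themselves not called different.

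**Figure D3:**
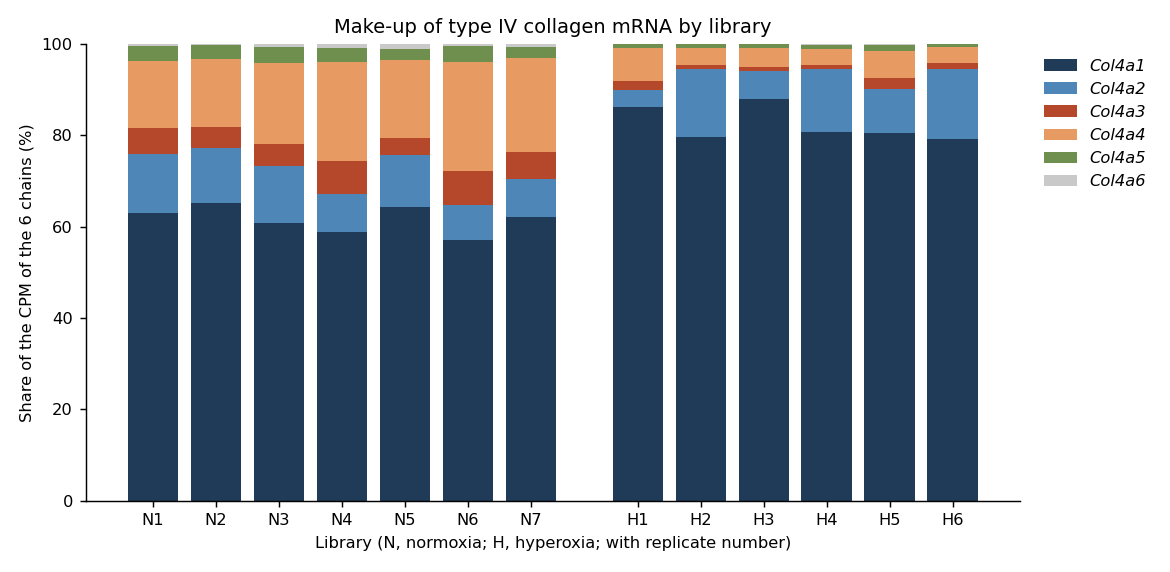
Share (%) of each of the 6 type IV collagen chains in their summed CPM, 1 bar for each library, N for normoxia and H for hyperoxia with the replicate number. Col4a1 fills 57.1% to 65.1% of the normoxic bars and 79.3% to 88.0% of the hyperoxic bars, and Col4a2 is thinnest in H1.

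Among the linkers, Nid1 was higher in hyperoxia and the others were not alike. Nid1 (nidogen-1, chromosome 13, 13437551 to 13512269, plus strand) had normoxic values of 73.3, 87.7 and 98.4 CPM (lowest, median, highest) and hyperoxic values of 128, 153 and 218 CPM. Its groups did not overlap, and it was the most even member in normoxia, with a coefficient of variation of 9.25%. Means were 88.0 ± 8.14 CPM (SD, n = 7) and 160.0 ± 33.5 CPM (SD, n = 6), with a log2 fold change of 0.86 (SE 0.14), or 0.77 without replicate 1.

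Nid2 (nidogen-2, chromosome 14, 19751265 to 19811787, plus strand) had 1 to 10 counts per library and did not pass the filter. It stood at 0.327 to 3.36 CPM in normoxia and 0.219 to 2.50 CPM in hyperoxia, and no difference was detectable at this depth. The end of Nid2 overlaps Rtraf on the other strand, a gene whose symbol was not found in the count table. Hspg2 (perlecan, chromosome 4, 137468769 to 137570630, plus strand) had 14.2 to 28.4 CPM in normoxia, with a median of 20.6. In hyperoxia replicate 1 had 3.22 CPM, from 6 counts, and the other 5 had 14.2 to 30.2 CPM. Its log2 fold change of -0.26 (SE 0.32) was not called and was -0.05 without replicate 1.

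Sparc (chromosome 11, 55394500 to 55423183, minus strand) was the highest member by tag count in normoxia, with 1769, 2330.0 and 3086 CPM as lowest, median and highest values. Hyperoxia replicates 1 to 6 had 12742, 5590.0, 3247, 3426, 3999 and 3860.5 CPM. All 6 were above the normoxic range, but replicate 1 was far above the rest and replicate 3 only just cleared it. Means were 2464 ± 471 CPM (SD, n = 7) and 5477 ± 3654 CPM (SD, n = 6), with a log2 fold change of 1.15 (SE 0.29). Without replicate 1 it was 0.72, still called.

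Whether the members vary together inside a group was independent of how they were chosen, and was tested over 14 relations with exact two-sided permutation of the pairings. In normoxia Col4a1 and Col4a2 gave Pearson's r = 0.85 (exact permutation p = 0.0262, adjusted p = 0.183, n = 7) and Spearman's rho = 0.93 (exact permutation p = 0.00675, adjusted p = 0.0944). Without the 2 libraries farthest from the median of Col4a1, r was 0.80. The libraries fall into the 2 letter sets here too, with the 2 normoxic libraries O and P among the 3 lowest for Col4a2, and neither set holds the 6 libraries a correlation of its own would need. In hyperoxia the same pair gave r = 0.14 (exact permutation p = 0.794, adjusted p = 0.872, n = 6) and rho = 0.03 (exact permutation p = 1.0, adjusted p = 1.0), and 0.42 without the 2 farthest libraries. The difference between the 2 groups' correlations was not tested.

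Col4a1 was also set against Sparc, Hspg2, Nid1 and Col4a3, and the other chain partners against each other. Col4a1 and Sparc in normoxia gave r = 0.84 (exact permutation p = 0.0222, adjusted p = 0.183, n = 7) and rho = 0.71 (exact permutation p = 0.0881, adjusted p = 0.256), but r = 0.45 without the 2 farthest libraries. Col4a1 and Hspg2 in normoxia gave r = 0.77 (exact permutation p = 0.0464, adjusted p = 0.217, n = 7) and rho = 0.86 (exact permutation p = 0.0238, adjusted p = 0.167), with r = 0.89 without those 2. Col4a1 and Col4a3 ran in opposite directions in both groups, with r = -0.63 in normoxia (exact permutation p = 0.138, adjusted p = 0.322, n = 7) and r = -0.76 in hyperoxia (exact permutation p = 0.0806, adjusted p = 0.226, n = 6). Their rho was -0.68 (exact permutation p = 0.11, adjusted p = 0.256) and -0.77 (exact permutation p = 0.103, adjusted p = 0.256), and r without the 2 farthest libraries was -0.41 and -0.40. Col4a3 and Col4a4 gave r = 0.26 in normoxia (exact permutation p = 0.565, adjusted p = 0.747, n = 7) and 0.65 in hyperoxia (exact permutation p = 0.169, adjusted p = 0.339, n = 6). Their rho was 0.46 (exact permutation p = 0.302, adjusted p = 0.470) and 0.71 (exact permutation p = 0.136, adjusted p = 0.272), and without the 2 farthest libraries the hyperoxic r was -0.41. Col4a5 and Col4a6 ran in opposite directions in normoxia, with r = -0.72 (exact permutation p = 0.0631, adjusted p = 0.221, n = 7), rho = -0.71 (exact permutation p = 0.0881, adjusted p = 0.256) and r = -0.75 without the 2 farthest libraries. In hyperoxia that pair gave r = 0.28 (exact permutation p = 0.506, adjusted p = 0.747, n = 6) and rho = 0.60 (exact permutation p = 0.242, adjusted p = 0.423). The remaining relations, of Col4a1 with Nid1 in both groups and with Sparc and Hspg2 in hyperoxia, had r between -0.35 and 0.26 and adjusted exact permutation p-values of at least 0.587. None of the 14 relations passed an adjusted p of 0.05 by either measure.

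The genes whose levels followed the members most closely, after each group's mean was subtracted, were named from 10112 genes whose mean log2 CPM reached 3. Over 13 libraries, Col4a1 was followed most closely by Svip (r = 0.85), Phka1 (0.83), Pms2 (0.81), Glipr1 (0.81) and Fam101b (0.81). Col4a2 itself had r = 0.37 with Col4a1, and Col4a3 had -0.69. Col4a3 was followed by Dst (0.91), Ikbip (0.87), Cfap46 (0.87), Dido1 (0.86) and Rtkn2 (0.86), of which Rtkn2 is also on the list of alveolar type 1 markers. Some of these names depended on hyperoxia replicate 1, while Svip, Phka1 and Pms2 for Col4a1, and Dst and Ikbip for Col4a3, stayed without it. Without it, Col4a1 was followed by Svip (0.90), Aspscr1 (0.89), Ndufb2 (0.86), Pms2 (0.85) and Phka1 (0.84), and Col4a3 by Arhgap24 (0.92), Dst (0.89), Slc35a3 (0.88), Clec9a (0.86) and Ikbip (0.84). These points share library depth and preparation, and the correlations are a description.

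The members' surroundings were followed in 90 other genes of basement membrane biology, grouped by role. Of the 76 tested, 20 were higher and 11 lower in hyperoxia, or 40.8% called beside 22.6% of all genes, with a median log2 fold change of 0.18. This split depended on the processing. It was 15 higher and 14 lower when scaling alone was changed to library size, 16 and 14 with limma-voom at TMM scaling, and 13 and 14 with limma on the deposited values, where test and scaling both differ. The 4 members called higher kept that call under all 3. Adjusted p-values below are from edgeR's quasi-likelihood test (Benjamini-Hochberg) over all 12496 genes, with SDs over 7 and 6 libraries.

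Laminins form the other network of the basement membrane. Of 9 subunits tested, 2 were higher and 1 lower, beside 11.8% and 10.8% of all genes. Lamc1, the γ1 chain shared by most laminins, rose from 43.3 ± 14.0 to 80.9 ± 23.9 CPM (log2 fold change 0.90, SE 0.23, adjusted p = 0.0111). Lama3, an epithelial α chain, fell from 48.0 ± 8.87 to 28.1 ± 8.37 CPM (log2 fold change -0.76, adjusted p = 0.00934). Lama4 (-0.17) and Lamb1 (0.45, adjusted p = 0.0556), the 2 most abundant of the list in normoxia, were not called. Without hyperoxia replicate 1, 5 laminins were called instead of 3, with Lamb1 (0.49, adjusted p = 0.0278) and Lama2 (0.50, adjusted p = 0.00793) added.

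Of 12 other basement membrane components tested, 3 were higher and 7 lower, beside 11.8% and 10.8% of all genes, with a median log2 fold change of -0.79 against -0.03. The difference in direction was not tested. Col18a1, the source of endostatin, rose from 16.0 ± 3.41 to 84.8 ± 17.0 CPM without overlap (log2 fold change 2.42, SE 0.18, adjusted p = 2.99e-07), a size like that of Col4a1. Tinagl1 had a larger log2 fold change of 2.64 (SE 0.55, adjusted p = 0.00281), yet hyperoxia replicate 1 had 3.22 CPM, under all normoxic libraries, and limma-voom and limma on the deposited values did not call it. Fbln1 (fibulin-1) fell without overlap, from 45.5 ± 8.00 to 17.6 ± 7.85 CPM (log2 fold change -1.38, adjusted p = 0.000852). Fras1, part of an epithelial anchoring complex, fell by 1.04 on the log2 scale (adjusted p = 0.00829).

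Few genes of collagen folding and modification were called, and their share was not tested against that of all genes. Of 17 tested, beside 11.8% higher and 10.8% lower of all genes, edgeR called 0 higher (2 at an unadjusted p under 0.05, P3h1 and Colgalt1, and 0 by DESeq2 or either limma fit) and 2 lower. P4ha1, a collagen prolyl 4-hydroxylase subunit, fell from 63.3 ± 7.40 to 41.3 ± 8.12 CPM (log2 fold change -0.62, adjusted p = 0.00771). Colgalt2, chosen here after its values were seen because it was the other gene called, fell by 2.89 on the log2 scale (adjusted p = 0.000117). Serpinh1, the collagen chaperone HSP47, had a log2 fold change of 0.12 (adjusted p = 0.880), with 1.61 CPM in hyperoxia replicate 1, and was -0.60 with limma on the deposited values.

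Cross-linking genes had 3 of 6 called higher, beside 11.8% of all genes. Lox, a lysyl oxidase, rose from 27.0 ± 5.20 to 136 ± 61.3 CPM without overlap (log2 fold change 2.33, SE 0.25, adjusted p = 1.14e-05). Loxl1 (0.53, adjusted p = 0.0308) and Loxl2 (0.39, adjusted p = 0.0434), the latter known to act on collagen IV, kept their calls in 12 and 9 of 21 alternatives. Pxdn, peroxidasin, which forms the sulfilimine bonds between collagen IV trimers, was not called (-0.80, adjusted p = 0.105). Its mean was 65.0 ± 16.0 CPM in normoxia and 36.9 ± 21.7 CPM in hyperoxia, where replicate 1 had 8.04 CPM.

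Beside 11.8% higher and 10.8% lower of all genes, receptors of basement membrane ligands had 4 of 11 called higher and 0 lower by edgeR (3 lower at an unadjusted p under 0.05, Itga1, Ddr2 and Adgrg6, with 0 by DESeq2 and 1 by each limma fit). Itgb1, the β1 integrin chain that pairs with the collagen-binding α chains, rose from 311 ± 46.7 to 661 ± 167 CPM without overlap (log2 fold change 1.09, SE 0.17, adjusted p = 0.000294). Itgb4, the β chain of the hemidesmosome integrin, had a log2 fold change of 1.56 (adjusted p = 0.0111) at a mean of 6.71 CPM in normoxia. Its hyperoxic mean was 20.3 ± 16.7 CPM, with 54.1 CPM in replicate 1, and without that library the log2 fold change was 1.02. Itga3 (1.09, adjusted p = 0.0425) and Itga6 (0.69, adjusted p = 0.0327) kept their calls in 6 of 20 and 11 of 21 alternatives. Dag1, dystroglycan, the most abundant of the list in normoxia, was not called (-0.07, adjusted p = 0.751).

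Matrix proteolysis had 7 of 17 genes higher and 1 lower, beside 11.8% and 10.8% of all genes, with a median of 0.80 against -0.03. Both inhibitors and proteases were among them. Timp1, an inhibitor of metalloproteinases, had the largest log2 fold change (3.73, SE 0.59, adjusted p = 0.000338), with 3.47 ± 3.09 CPM in normoxia and 42.2 ± 27.4 CPM in hyperoxia. Plat, tissue plasminogen activator, rose by 2.53 on the log2 scale (adjusted p = 0.000546). Mmp3, stromelysin-1, rose by 2.44 (adjusted p = 2.52e-05) without overlap. Timp1 and Plat were at 3.75 and 7.51 CPM in hyperoxia replicate 1, inside or under their normoxic ranges. In the SPARC family 1 of 4 tested was higher, again beside 11.8%, namely Sparcl1, with a log2 fold change of 0.64 (adjusted p = 0.0218) and, like Sparc, its highest value in hyperoxia replicate 1 (3219 CPM).

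**Figure D4:**
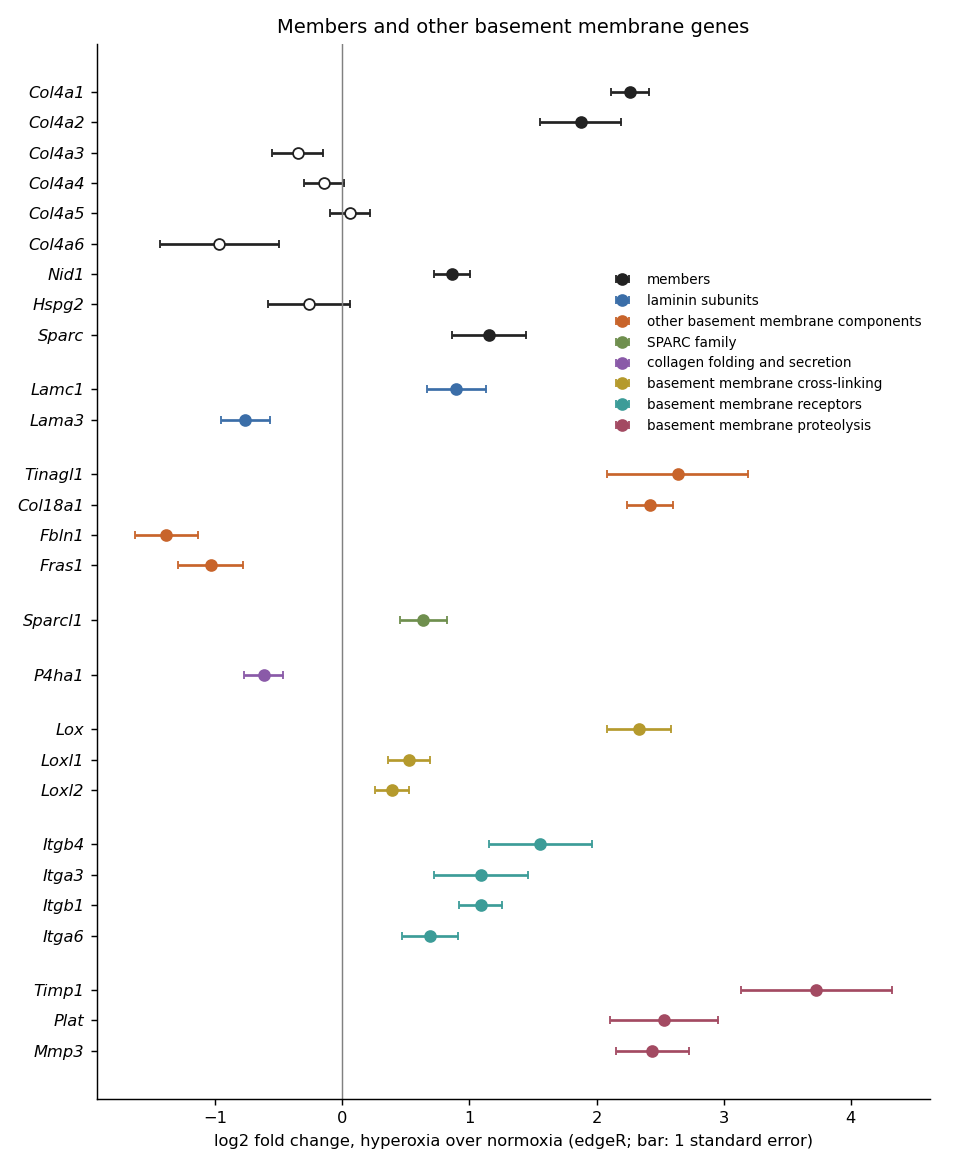
log2 fold change of hyperoxia over normoxia (edgeR, bars 1 SE) for the 9 members tested, in black, and for the genes named in the text from 7 lists, coloured by list; open points were not called at an adjusted p under 0.05. Col4a1 (2.26) and Col4a2 (1.87) stand with Col18a1 (2.42) and Lox (2.33), while Col4a3 (-0.35) and Col4a4 (-0.14) lie near 0.

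In whole-lung RNA, fewer cells of a type and less RNA per cell cannot be told apart, so markers of the cells known to make type IV collagens are given beside the members. Their counts stand against 11.8% of all genes called higher and 10.8% called lower. Of 8 pan-endothelial markers 1 was higher and 2 lower, with a summed level of 2588 to 5023 CPM in normoxia and 2068 to 5466 CPM in hyperoxia. Pecam1, not called, had 2773 ± 862 and 1605 ± 1299 CPM, and Egfl7, the 1 called higher, had 501 ± 83.0 and 1296 ± 1021 CPM. Hyperoxia replicate 1 was the lowest library for Pecam1 (392 CPM) and the highest for Egfl7 (3335 CPM). Without it the log2 fold change of Egfl7 was 0.84 instead of 1.37. General capillary markers had 1 of 7 higher and 4 lower, and their 2 most abundant genes went apart, with Cd93 at a log2 fold change of 2.20 and Ptprb at -1.16. Aerocyte markers had 2 of 7 higher and 3 lower, with 440.1 to 577 CPM and 428 to 572 CPM. The summed capillary level was 2326 to 2764 CPM in normoxia and 3200 to 6405 CPM in hyperoxia, highest in replicate 1. Cd93, at 755 ± 59.2 and 3478 ± 1231 CPM, made up most of the hyperoxic sum. The median log2 fold change of the 7 capillary markers was -1.16, so the higher sum does not describe the list as a whole.

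Against the same shares of all genes (11.8% higher, 10.8% lower), pericyte markers had 1 of 8 higher and 2 lower, with summed levels of 92.2 to 141 CPM and 61.1 to 163 CPM. Over all 13 libraries Pdgfrb (-0.27) and Trpc6 (1.24) were the most abundant of them, and Pdgfrb was at 0 in hyperoxia replicate 1. In normoxia alone Notch3 (-0.79) was above Trpc6. Fibroblast markers had 2 of 8 higher and 1 lower, with 2725 to 4001 CPM and 3212 to 3916 CPM. Over all libraries their most abundant genes were the fibrillar collagens Col1a2 and Col3a1, with log2 fold changes of 0.12 and 0.57, against 2.26 for Col4a1. In normoxia alone Inmt (738 CPM) was above Col3a1 (633 CPM), and it was called lower (-1.97, adjusted p = 0.0279). Alveolar type 1 markers had 1 of 10 higher and 1 lower, with 4751 to 5425 CPM and 5608 to 6511 CPM, of which Akap5 (1.20) and Cldn18 (-0.12) were the most abundant. Akap5, the 1 called higher, went from 1194 ± 133 to 2734 ± 359 CPM and was the largest part of the hyperoxic sum. The median log2 fold change of the 10 markers was 0.02, so the higher sum does not describe the list as a whole. None of the genes on these 6 lists was at 0 throughout a group. The part of these cell types in the differences of Col4a1, Col4a2, Nid1 and Sparc was not tested.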

How the data were processed

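Normoxic (7) and hyperoxic (6) lung libraries, made by Quant-seq, were grouped by their labels. Through BioJupies the authors pseudoaligned reads with kallisto, and they deposited the raw counts of each gene symbol. A further table of deposited log10 values was found by recomputation to hold log10(CPM + 1), scaled by total count. Per the labels the build was mm10 and limma 3.54.2 was used; the annotation is not given in the sources used here. All table columns mapped to samples (0 left over). Libraries of one group differed by more than sampling noise in all 36 pairs, so none was merged.

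Counts were tested with edgeR 4.0.16 (glmQLFit, glmQLFTest, R 4.3.3) after TMM scaling and filterByExpr, with Benjamini-Hochberg adjustment and a call at 0.05, in place of the limma test of the study's methods, which was run as an alternative. The fits were tested on simulated data. log2 CPM used a prior count of 2. Standard errors came from the log2 fold change and its F statistic. The floor of 3 counts covers counting error only, whereas SDs and standard errors include the spread between libraries. A gene near the floor is imprecise. Pair contrasts were not tested, and relations within a group were tested by exact permutation. Alternatives were DESeq2 1.42.0, limma-voom (limma 3.58.1), limma on the deposited values, scaling by library size, omission of the filter, a minimum of 10 counts per library, a replicate block, a term for the letter set, and each library left out. Coordinates and overlaps are from GENCODE on GRCm38, matched by symbol, and an overlap at the 3′ end means within the last 2000 bases.

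The members, the 7 pathway lists and the 15 marker lists were chosen with earlier results of these data known, the lists from general knowledge. Named genes were all members, the 4 called genes of each pathway list with the largest absolute log2 fold change at a mean log2 CPM of at least 3, the 5 genes most like Col4a1 and Col4a3 (also without hyperoxia replicate 1), and the 2 most abundant markers of 6 cell types. Genes named outside this rule (Lama2, Lama4, Lamb1, P3h1, Colgalt1, Colgalt2, Serpinh1, Pxdn, Itga1, Ddr2, Adgrg6, Dag1, Notch3 and Inmt) were picked with their values in view. Of the genes that rule names, 2 are counted in their lists and not reported here by name. The other 9 marker lists are in the closing section.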

Additional observations from a re-analysis of the deposited data

Results flagged for a closer look

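In all, 3 values lay far from the other libraries of their group by Dixon's criterion, among 28 sets of values examined, where chance alone would give 1.4. Sparc in hyperoxia replicate 1 was 12742 CPM, with the next value at 5590.0 CPM, a gap of 0.753 of the group's range. Col4a6 in normoxia replicate 5 was 15.9 CPM, with the next at 9.08 CPM (gap ratio 0.583), from 26 counts. The total count of that library, 1607111, was itself below the next lowest of 2696280 (gap ratio 0.612).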

How the results depend on the processing

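The fold changes of the 9 members tested kept direction and side of the threshold in 186 of 187 comparisons with an alternative, counting values under the threshold as kept whatever their sign. The exception was Sparc with the replicate number as a block, at 0.95 and no longer called. Col4a1 stayed between 2.18 and 2.34, Col4a2 between 1.64 and 2.07, Nid1 between 0.76 and 0.95 and Sparc between 0.72 and 1.31. The pair contrast stayed between 1.91 and 2.90. No within-group correlation passed its threshold at first, so the alternatives say nothing of their stability.

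The replicate numbers did not pair the libraries: the deviations of same-numbered libraries correlated at -0.33 to 0.27, and 0 of 6 pairs matched their own number best. With the replicate block, over 12 libraries, 1291 genes were called instead of 2819, and 19 of the pathway genes instead of 31. The block also changed calls of single pathway genes. Among these, Tinagl1, Fras1, Sparcl1, P4ha1 and Itgb4 were not called under it. Without hyperoxia replicate 1, 3633 genes were called, and 25 pathway genes were higher and 14 lower. The share of all calls that were higher was 52.3% in the report, 42.7% on library size alone, 47.9% with limma-voom at the same TMM scaling, and 38.8% with limma on the deposited values, where test and scaling both differ. The median over all genes was -0.10, -0.08 and -0.16 in these 3 alternatives. The cause of these changes was not tested. Nid2, at 1 to 10 counts per library, is limited by depth.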

Other observations

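Markers of the other 9 cell types are given beside the 22.6% of all genes called, 11.8% higher and 10.8% lower. Alveolar type 2 markers, led by the surfactant gene Sftpc, had 6 of 8 lower by edgeR, with summed levels of 12879 to 23774 CPM in normoxia and 3414 to 7436 CPM in hyperoxia. Lymphocyte markers had 5 of 5 lower, with 116 to 157 CPM and 27.4 to 75.1 CPM. Macrophage and monocyte markers had 1 of 8 higher and 3 lower, and airway epithelial markers 2 of 5 lower. Smooth muscle markers had 3 of 6 higher, with 279 to 397 CPM and 453 to 822 CPM, the highest in hyperoxia replicate 1. Cardiac muscle markers had 3 of 6 lower and mesothelial markers 1 of 4 lower. Of 5 lymphatic endothelial markers edgeR called 0, with 1 lower at an unadjusted p under 0.05 (Ccl21a, chosen after its values were seen), 1 by DESeq2 and 0 by either limma fit. Of 4 neutrophil markers 0 were called by edgeR, by DESeq2 or by either limma fit, and 0 had an unadjusted p under 0.05.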
